A study of Mus musculus with 25 samples.

Results

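The regulators of G protein signalling (RGS) described here are 10 genes, Rgs2, Rgs3, Rgs4, Rgs5, Rgs6, Rgs7, Rgs10, Rgs12, Rgs14 and Rgs16, taken by symbol from a table of 20870 mouse genes. Their transcripts were measured by RNA sequencing of laser-captured sinoatrial node (SAN), where the heartbeat starts, and of right atrium (RA), the working muscle beside it. All mice were of mixed strain background and carried an Hcn4-GFP allele. SAN and RA were each collected before birth, on embryonic day 14.5 (E14.5), and after it, on postnatal days 4 (P4) and 14 (P14), with 3 libraries per group and 18 in all. A further 7 SAN libraries came from E12.5 embryos that were also homozygous for a floxed Isl1 allele (Isl1 fl/fl) and had been exposed to tamoxifen at E10.5. Of these, 4 had no Cre (CreNeg) and 3 carried CAG-Cre/Esr1, a tamoxifen-inducible Cre recombinase under a broadly active promoter (CrePos), so the floxed allele and tamoxifen were common to both groups and Cre was not restricted to the node. CrePos replicate 2 is titled an outlier, and the comparison used the other 2 CrePos libraries.

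When a G protein coupled receptor is engaged, its G protein alpha subunit binds GTP and signals until the GTP is hydrolysed. RGS proteins speed that hydrolysis and so shorten the signal. In the node this matters for the vagus nerve, which slows the heart through M2 muscarinic receptors, inhibitory G proteins and the GIRK potassium channel built from the products of Kcnj3 and Kcnj5. The genes fall into families by the structure of their proteins. Rgs2, Rgs3, Rgs4, Rgs5 and Rgs16 belong to the small R4 family, Rgs6 and Rgs7 to the R7 family, whose proteins are stable only with the beta subunit Gnb5, and Rgs10, Rgs12 and Rgs14 to the R12 family.

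Levels are given as CPM, the deposited scaled read counts divided by 1 constant for all libraries. Library totals on this scale were not equal. They were 991510 to 1.22e+06 for SAN and RA at the 3 stages. In the Isl1 set they were 775973 to 890183 in CreNeg and 745859 and 632387 in the CrePos libraries compared. Differences are given as log2(CPM + 1) with a pseudocount of 1, which understates the change of genes with low counts. Tests were limma with a mean-variance trend, fitted to all genes that reached 1 CPM in at least 3 libraries (2 in the Isl1 set), and each adjusted p is Benjamini-Hochberg over all of those genes, called under 0.05. Depth was 5101711 to 17997497 reads per library for SAN and RA at the 3 stages and 45298052 to 88020476 for the Isl1 set, so that a count of 0 allowed up to 3 reads, or 0.185 to 0.646 CPM and 0.0247 to 0.0530 CPM. Nothing in the labels says which animal a library came from, and p-values therefore measure the spread between these libraries. The node marker Hcn4, the pacemaker channel stained to check the dissection, was at 1141 to 3748 CPM in the SAN libraries of the 3 stages and at 4.43 to 31.1 CPM in RA. SAN E14.5 replicate 1 stood apart by 829 CPM of Myl2, a ventricular myosin light chain, against 1.60 and 14.14 CPM in the other E14.5 SAN libraries. Without that library 39 of the 40 results on SAN against RA in the RGS genes stayed on the same side of the threshold, and the exception is given with Rgs5. The uncalled Rgs7 difference at E14.5 turned from 0.10 to -0.43.

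The sequences just upstream of the genes that separated the tissues at every stage are shown, Rgs4, Rgs6 and Rgs12 (higher in the node) and Rgs2 (higher in the atrium). They are the 250 bases before the RefSeq start site on build GRCm38.p6, written 5′ to 3′ on the strand of the gene, and capitals mark motif matches on either strand. The deposited table gives build mm8 and no coordinates, so positions are those of RefSeq alone.
Rgs4, chr1:169747643-169747892, minus strand: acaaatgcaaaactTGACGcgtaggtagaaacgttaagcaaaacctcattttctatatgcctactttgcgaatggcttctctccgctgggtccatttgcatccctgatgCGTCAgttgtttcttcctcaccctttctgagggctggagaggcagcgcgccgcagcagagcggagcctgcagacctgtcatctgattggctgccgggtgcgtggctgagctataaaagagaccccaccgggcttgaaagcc
Rgs6, chr12:82617249-82617498, plus strand: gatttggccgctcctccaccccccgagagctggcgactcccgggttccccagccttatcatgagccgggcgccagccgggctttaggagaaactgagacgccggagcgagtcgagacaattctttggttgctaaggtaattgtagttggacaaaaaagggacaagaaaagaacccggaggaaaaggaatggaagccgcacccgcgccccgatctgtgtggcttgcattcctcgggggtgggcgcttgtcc
Rgs12, first of 2 starts in RefSeq, chr5:34949198-34949447, plus strand: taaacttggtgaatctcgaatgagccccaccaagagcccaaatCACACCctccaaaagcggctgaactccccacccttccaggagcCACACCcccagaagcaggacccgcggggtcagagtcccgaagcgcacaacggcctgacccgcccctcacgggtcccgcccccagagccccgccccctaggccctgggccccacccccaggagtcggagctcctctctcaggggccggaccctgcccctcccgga
Rgs2, chr1:144004150-144004399, minus strand: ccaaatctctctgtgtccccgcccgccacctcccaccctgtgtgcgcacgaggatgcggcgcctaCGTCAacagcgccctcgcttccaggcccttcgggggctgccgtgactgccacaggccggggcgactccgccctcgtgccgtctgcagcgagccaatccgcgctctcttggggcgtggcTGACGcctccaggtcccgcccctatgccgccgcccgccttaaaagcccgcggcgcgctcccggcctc

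The search covered 300 bases, from 250 before to 50 after the start, of 9 RGS genes with an entry. Rgs3 and Rgs12 each have 2 starts. The motifs were GGTGTG (a T-box core), CTAATG (a core bound by ISL1-type homeodomains), AAGTG (a core of NK2-type factors) and TGACG (the core of a cAMP response element), read on both strands. AAGTG and TGACG can share letters, but matches of different motifs did not overlap in these windows. Of 32851 promoters of the same length, 19% held GGTGTG, 7.4% CTAATG, 46.4% AAGTG and 20.8% TGACG. Rgs4 held TGACG beginning 236 and 141 bases before its start, and Rgs2 held it 185 and 67 bases before. Rgs12 held GGTGTG on the opposite strand 207 and 164 bases before its first start, and Rgs6 held it 24 bases after its start, past the printed stretch. The same letters stood 87 bases before the start of Rgs7, which was not higher in SAN, and TGACG also stood 82 bases before the second start of Rgs12. AAGTG stood 37 bases after the start of Rgs2 and 91 bases before the second start of Rgs12. On the opposite strand it stood 3 bases after the first start of Rgs3. Of the windows searched, that of Rgs5 alone held CTAATG, 247 bases before its start. These are matches of letters in a short window and describe the sequence only. On the chromosomes, 5 of the 10 genes lie on chromosome 1, and Rgs4 and Rgs5 are next to each other there.

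Rgs4, Rgs6 and Rgs12 were higher in SAN than in RA at all 3 stages and Rgs2 was lower at all 3. Rgs4, whose protein acts on inhibitory and Gq-type alpha subunits and is known to limit muscarinic slowing of the node, differed most of the 10. Averaged over the stages, 4 of the 10 genes were higher in SAN (Rgs4, Rgs5, Rgs6 and Rgs12) and 3 were lower (Rgs2, Rgs3 and Rgs7), in a fit where 11.5% of the 17568 genes tested were called, 6.11% higher and 5.36% lower. The median difference was 0.86 over the 10 genes and -0.01 over all genes tested. In bulk tissue, fewer cells of a type and less RNA per cell cannot be told apart.

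**Figure D1:**
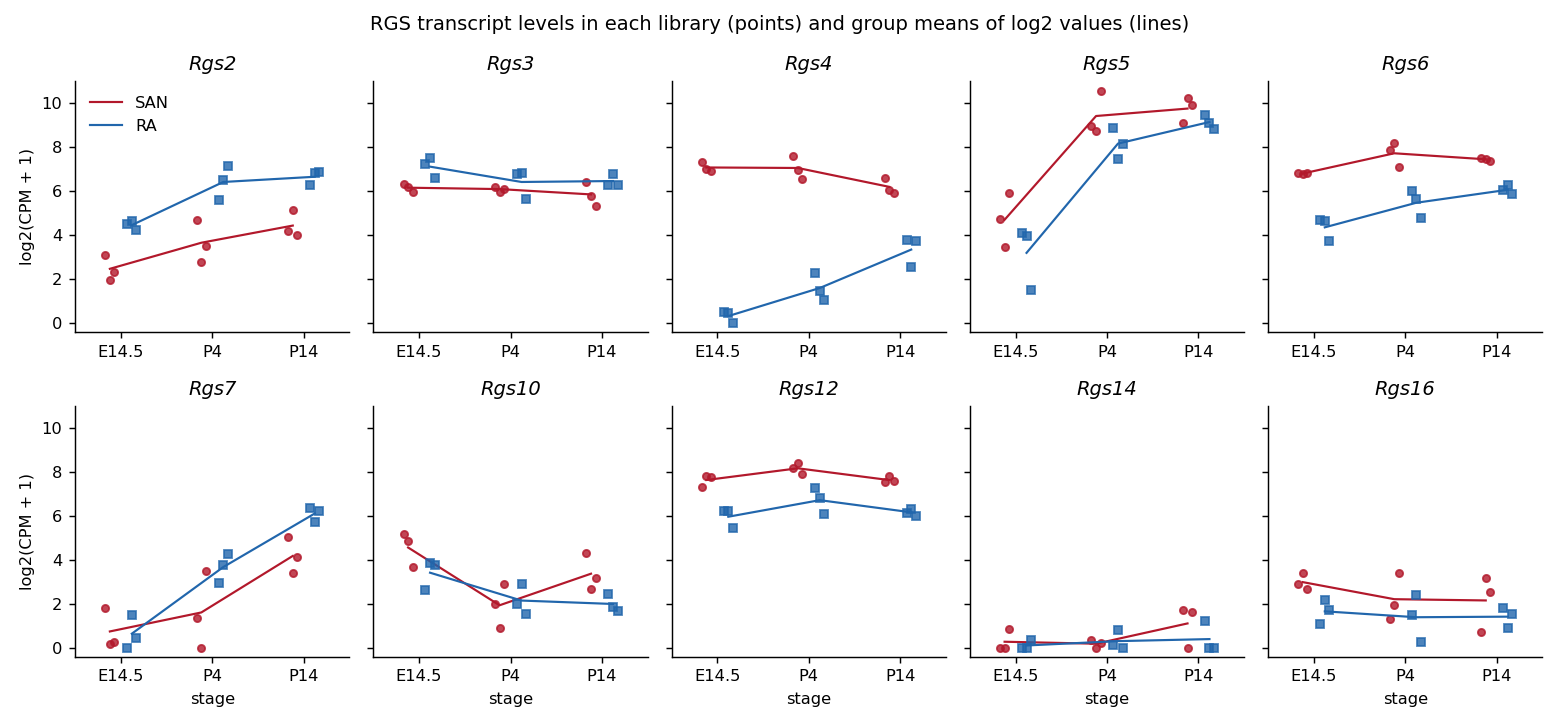
Level of each RGS gene as log2(CPM + 1) on the vertical axis against stage, with 1 point per library (circles SAN, squares RA) and lines joining the group means of 3 libraries. Rgs4, Rgs6 and Rgs12 have every SAN point above every RA point of the same stage, Rgs2 has the reverse, and Rgs5 and Rgs7 climb in both tissues.

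Among the R4 genes, Rgs4 in SAN was at 158, 128 and 119 CPM at E14.5, at 193, 125 and 94.3 CPM at P4, and at 97.4, 65.2 and 59.5 CPM at P14. In RA it was at 0.451, 0.369 and 0 CPM at E14.5, at 3.87, 1.78 and 1.08 CPM at P4, and at 12.7, 4.81 and 12.3 CPM at P14. The tissues did not overlap at any stage, and the lowest SAN library of any stage stood above the highest RA library. At E14.5 the 3 RA libraries held 6 reads in all, and the ratio of the means was 494, with a counting interval of 227 to 1346 from the exact Poisson limits of those reads at 95%. The log2 difference was 6.75 ± 0.41 (SE) at E14.5 (limma, adjusted p = 3.97e-10), 5.45 ± 0.41 at P4 (adjusted p = 7.19e-09) and 2.85 ± 0.41 at P14 (adjusted p = 9.71e-05). The shares of all genes called at those stages were 5.33%, 5.96% and 4.55%. Split by direction, 2.24%, 2.97% and 3.21% of all genes were higher in SAN and 3.09%, 2.99% and 1.34% were lower.

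The gap in Rgs4 narrowed with age. In RA the gene rose by 3.02 ± 0.41 from E14.5 to P14 (limma, adjusted p = 1.35e-05), and its RA libraries of the 3 stages did not overlap. In SAN the difference over the same interval was -0.88 ± 0.41 (95% interval -1.72 to -0.04, adjusted p = 0.124). The SAN change minus the RA change was -3.90 ± 0.57 (adjusted p = 0.000758), the 1 call among the 10 genes in a test that called 2.27% of all genes. Over the same stages the summed level of the 7 node markers in RA went from 202 to 223 CPM at E14.5 to 90.7 to 146 CPM at P14. Of the 7, 2 rose (Tbx3 by 2.75 and Smoc2 by 1.89) and 3 fell (Hcn4, Tbx18 and Vsnl1), and the part of node cells in atrial Rgs4 was not tested. From P4 to P14 atrial Rgs4 differed by 1.74 ± 0.41 (adjusted p = 0.0126), a call that was lost without any of RA P4 replicate 3, RA P14 replicate 1 or RA P14 replicate 3 (adjusted p up to 0.0614).

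Rgs4 is also abundant in neurons, and markers of autonomic neurons leaned the same way between the tissues. Of 7 such genes tested, 4 were higher in SAN and none lower, and the 9 in the table summed to 61.0 to 317 CPM in SAN and to 21.7 to 37.4 CPM in RA. At E14.5 the sums were 153 to 255 CPM in SAN and 22.3 to 29.9 CPM in RA, with 2 of 7 called higher, while Phox2a and Prph were at 0 in all 6 libraries. From E14.5 to P14, 1 of the 7 rose and 2 fell in RA, where Rgs4 rose, and the sum at P14 was 23.5 to 37.4 CPM. In SAN 2 rose and 3 fell, and the sum at P14 was 61.0 to 65.9 CPM. The part of neurons in the Rgs4 difference was not tested.

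Rgs2, a regulator with a preference for Gq and a gene known to respond quickly to stimulation, showed the opposite preference. At E14.5 its levels were 7.66, 2.96 and 4.01 CPM in SAN and 21.7, 24.1 and 17.7 CPM in RA. The P4 values were 24.5, 5.91 and 10.4 CPM in SAN against 47.4, 91.0 and 139 CPM in RA, and the P14 values were 17.3, 34.1 and 14.9 CPM against 76.7, 112 and 116 CPM. No SAN library reached the lowest RA library of its own stage. The log2 differences were -1.98 ± 0.46 (limma, adjusted p = 0.00918), -2.76 ± 0.46 (adjusted p = 0.000346) and -2.22 ± 0.46 (adjusted p = 0.00464) in stage order. The first of these missed the threshold without SAN E14.5 replicate 2 (adjusted p = 0.0620). Of 14 immediate early genes, which share its quick response, 2 were higher in SAN over the 3 stages and none was lower. Of 7 working atrial markers, 7 were lower in SAN over the 3 stages, and 4 rose in RA from E14.5 to P14. Endothelial markers leaned the same way as Rgs2 and Rgs3 between the tissues, as 6 of 11 were lower in SAN over the 3 stages. By stage, 8 of 11 were lower at E14.5, 5 of 11 at P4 and 2 of 11 at P14, and none was higher. With age in RA, where Rgs2 rose, 1 of the endothelial markers rose and 1 fell from E14.5 to P14. They summed to 614 to 1742 CPM in SAN and 1481 to 2327 CPM in RA, and their part in the differences was not tested.

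**Figure D2:**
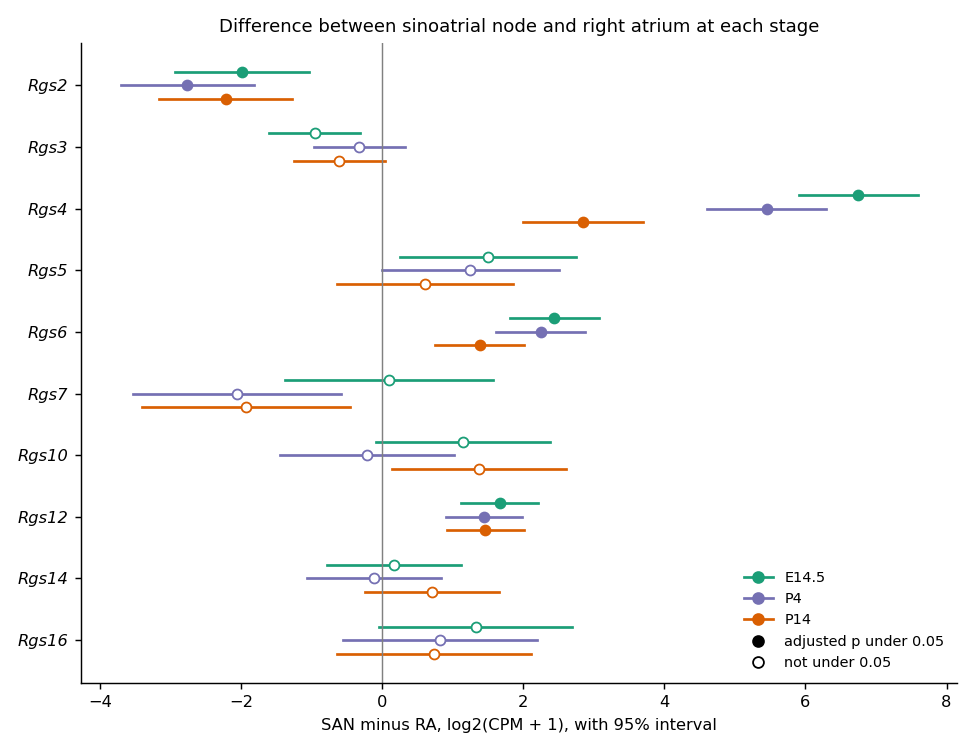
Difference between SAN and RA as log2(CPM + 1) on the horizontal axis for each RGS gene and stage, with 95% intervals from the limma fit to 18 libraries. Filled points have an adjusted p under 0.05, which holds at all 3 stages for Rgs2, Rgs4, Rgs6 and Rgs12 and at none for the other 6 genes, and the Rgs4 difference shrinks from 6.75 at E14.5 to 2.85 at P14.

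Rgs3, a longer R4 protein that acts on inhibitory and Gq-type subunits, leaned toward the atrium by a smaller amount. Its 9 SAN libraries ranged from 39.6 to 85.2 CPM with a median of 68.3 CPM, and its 9 RA libraries from 48.6 to 178 CPM with a median of 108 CPM. The ranges overlapped. The difference averaged over the stages was -0.63 ± 0.18 (limma, adjusted p = 0.0236) and no single stage passed the test. It was lost in 6 of the 18 fits that each left out a library (adjusted p up to 0.0594).

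Rgs5, a marker of the pericytes that wrap small vessels, was spread widely in the node. The P4 SAN libraries held 501, 423 and 1484 CPM against 473, 173 and 283 CPM in RA, and at E14.5 the values were 25.7, 9.99 and 59.1 CPM against 16.4, 14.6 and 1.87 CPM. SAN and RA overlapped at all 3 stages. The difference averaged over the stages, 1.12 ± 0.35 (limma, adjusted p = 0.0384), was lost in 10 of the 18 fits without a library (adjusted p up to 0.0897), among them the fit without SAN E14.5 replicate 1 (1.12, adjusted p = 0.0603), and also without the filter on low values (adjusted p = 0.071). Of 11 pericyte and smooth muscle markers, 2 were higher in SAN and 1 was lower. Their part in the difference was not tested.

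Rgs16, an R4 gene that acts on inhibitory and Gq-type subunits, stayed at or below 9.66 CPM in the 18 libraries. Over 9 libraries each, the median was 5.42 CPM for SAN and 1.92 CPM for RA. The ranges overlapped, and the difference of 0.96 ± 0.38 did not pass the test (95% interval 0.17 to 1.75, limma, adjusted p = 0.12). Because the libraries carry no strand information, reads of Rgs16 cannot be separated from those of Gm28513, which overlaps it on the opposite strand by 236 exon bases.

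In the R7 family, Rgs6, whose protein with Gnb5 is known to shut off GIRK signalling in the node, was at 111, 109 and 111 CPM in SAN and at 24.5, 24.3 and 12.4 CPM in RA at E14.5. At P4 the values were 229.7, 293 and 137 CPM in SAN against 62.4, 49.0 and 26.7 CPM in RA, and at P14 they were 182, 175 and 164 CPM against 66.3, 76.1 and 56.7 CPM. Every SAN library of the 3 stages, from 109 CPM upward, exceeded every RA library, the highest of which had 76.1 CPM. The log2 differences were 2.44 ± 0.30 (limma, adjusted p = 1.68e-05), 2.25 ± 0.30 (adjusted p = 2.87e-05) and 1.38 ± 0.30 (adjusted p = 0.00787) in stage order. The SAN change from E14.5 to P14 minus the RA change was -1.06 ± 0.43, which did not pass the test (95% interval -1.95 to -0.17, adjusted p = 0.225). Gnb5, the partner without which R7 proteins are lost, averaged 39.7 CPM for SAN and 32.4 CPM for RA, a difference of 0.36 that did not pass the test (adjusted p = 0.399).

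Rgs7, the other R7 gene of the 10 and best known from brain, was nearly absent at E14.5, with 2.53, 0.123 and 0.201 CPM in SAN and 0, 1.84 and 0.356 CPM in RA. At P14 it was at 31.6, 9.46 and 16.4 CPM in SAN and at 81.9, 51.9 and 73.4 CPM in RA. The tissues were apart at P14 and overlapped at the earlier stages. Averaged over the stages the difference was -1.30 ± 0.41 (limma, adjusted p = 0.0424), and no single stage passed. It was lost in 13 of the 18 fits without a library (adjusted p up to 0.097), with a pseudocount of 0.25 (adjusted p = 0.114), without the filter (adjusted p = 0.0681) and by edgeR on whole reads (adjusted p = 0.443).

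Of the R12 genes, Rgs12, a large scaffold protein that acts on inhibitory subunits, was at 157, 226 and 213 CPM in SAN and 72.6, 74.4 and 42.3 CPM in RA at E14.5. The P4 values were 287, 336 and 239 CPM against 150.3, 112 and 66.5 CPM, and the P14 values were 182, 220.4 and 188 CPM against 69.9, 79.5 and 62.9 CPM. SAN and RA did not overlap within any stage or across them. The log2 differences were 1.67 ± 0.26 (limma, adjusted p = 0.000295), 1.45 ± 0.26 (adjusted p = 0.000922) and 1.46 ± 0.26 (adjusted p = 0.0013), much alike in size from stage to stage. For the change from E14.5 to P14, SAN minus RA gave -0.20 ± 0.37 (95% interval -0.97 to 0.56, adjusted p = 0.859). An overlap of 295 exon bases with Gm43791 on the opposite strand cannot be separated in these libraries, nor can the 77 bases that Rgs6 has in common with Gm29530.

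Rgs10, a small R12 protein known from leukocytes and platelets, ranged from 0.902 to 34.8 CPM over the SAN libraries and from 1.94 to 13.4 CPM over the RA libraries. The difference averaged over the stages was 0.77 ± 0.34 and did not pass the test (95% interval 0.05 to 1.48, limma, adjusted p = 0.176). Rgs14, a scaffold best known from the hippocampus, reached at most 2.29 CPM in the 18 libraries, with medians of 0.174 CPM for SAN and 0 CPM for RA. At that level a difference was not detectable at this depth (0.25 ± 0.27, adjusted p = 0.649).

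The order of the genes within a tissue was read from CPM per kilobase of exon, since longer transcripts collect more reads. The length was the union of all GENCODE basic exons of a gene on GRCm38, from 1.14 kilobases for Rgs10 to 7.83 for Rgs3. The deposited table gives build mm8, so the order depends on this choice of lengths. At E14.5 Rgs4 led in SAN with 45.9 CPM per kilobase and did not overlap the next, Rgs12 with 30.2, which overlapped Rgs10 with 21.8. In RA at the same stage Rgs3 led with 18.1 CPM per kilobase, clear of Rgs12 with 9.58 and Rgs10 with 9.15, which overlapped each other, and Rgs4 was ninth of the 10. At P14 Rgs5 led in both tissues, with 199 CPM per kilobase in SAN and 126 in RA. It was followed in SAN by Rgs12 with 29.9, Rgs4 with 25.2 and Rgs6 with 23.8, neighbours whose ranges overlapped. In RA Rgs5 was followed by Rgs2 with 31.2 and Rgs7 with 27.5, which also overlapped. The leading regulators of the tissues thus had only Rgs5 in common at P14 among the first 3 of each.

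With age, Rgs2, Rgs5 and Rgs7 rose in both tissues, and Rgs4 and Rgs6 also rose in RA. From E14.5 to P14, 3 of the 10 genes were called in SAN, all higher, where 24.3% of all genes tested were called, with 9.74% of all genes higher. In RA 5 of the 10 were called, all higher, where 22.7% of all genes were called, with 5.99% higher. The median of all genes moved by -0.18 in SAN and -0.37 in RA over this interval. It was -0.07 in SAN and -0.11 in RA after libraries were scaled to equal upper quartiles. By edgeR on whole reads it was 0 in SAN and -0.03 in RA, so the background below 0 depended on the scaling. The RA split of all genes into 1052 higher and 2936 lower became 1556 and 1683 with equal upper quartiles and 1569 and 1146 by edgeR. The SAN split of 1712 and 2551 became 2027 and 2115 with equal upper quartiles and 1965 and 1706 by edgeR. All 8 of these RGS calls kept their direction and their call under both of those scalings.

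**Figure D3:**
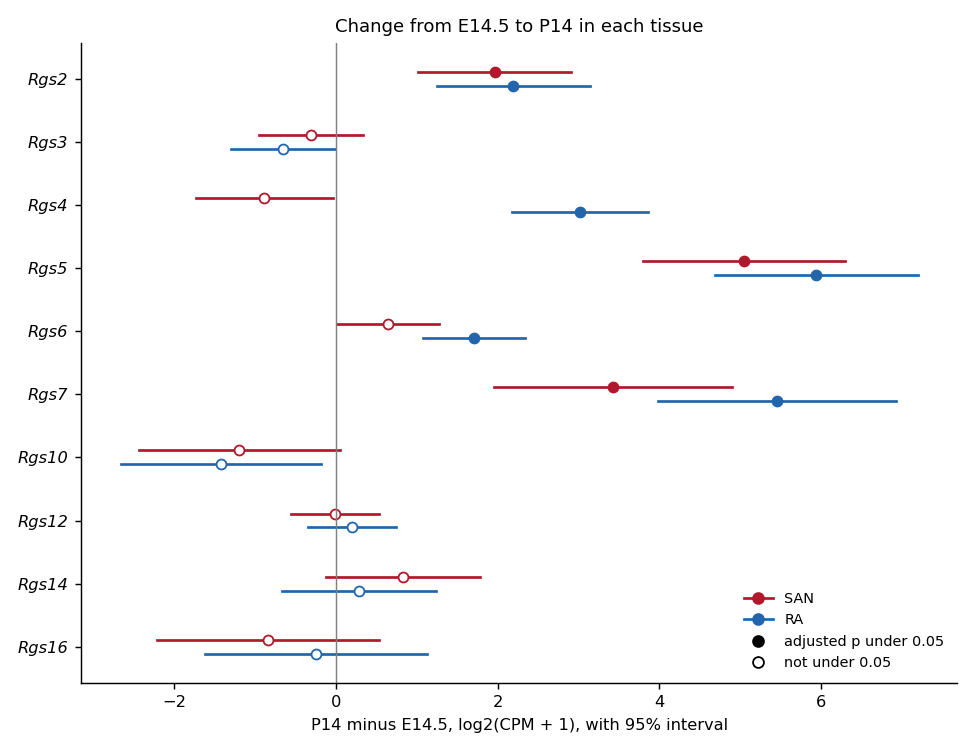
Change from E14.5 to P14 as log2(CPM + 1) on the horizontal axis for each RGS gene in SAN and RA, with 95% intervals from the limma fit to 18 libraries and filled points where the adjusted p is under 0.05. Rgs2, Rgs5 and Rgs7 are filled in both tissues, and Rgs4 has its SAN interval below 0 and its RA interval above 2.

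Rgs5 rose steeply in both tissues. In SAN it rose by 5.05 ± 0.60 from E14.5 to P14 (limma, adjusted p = 3.17e-06), and in RA by 5.94 ± 0.60 (adjusted p = 3.71e-07), with P14 values of 546, 1206 and 966 CPM in SAN and 703, 553 and 459 CPM in RA. No P4 or P14 library overlapped an E14.5 library of its tissue. Most of the rise was present by P4, at 4.71 ± 0.60 in SAN (adjusted p = 3.48e-05) and 4.96 ± 0.60 in RA (adjusted p = 1.28e-05), and the step from P4 to P14 did not pass the test in either tissue. The shares of all genes called from E14.5 to P4 were 8.24% in SAN and 6.79% in RA.

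Markers of pericytes and smooth muscle went both ways over the same time. In SAN 4 of 11 rose and 2 fell from E14.5 to P14, with a summed level of 1016 to 1149 CPM at E14.5 and 2111 to 3617 CPM at P14. In RA 3 of 11 rose and 2 fell, and the sum went from 957 to 1191 CPM down to 590 to 773 CPM. The sum pools pericyte with smooth muscle genes. Atrial Rgs5 was 52.3 times higher at P14 than at E14.5, as a ratio of means. The median log2 difference of the 11 markers from E14.5 to P14 was 0.34 in RA, against -0.37 over all genes tested. In SAN it was 0.29, against -0.18. The part of vessel cells in the rise of Rgs5 was not tested.

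Rgs7 rose from the values near 0 given above by 5.46 ± 0.71 in RA (limma, adjusted p = 9.01e-06) and by 3.43 ± 0.71 in SAN (adjusted p = 0.0011). The SAN change minus the RA change, -2.03 ± 1.00, did not pass the test (95% interval -4.11 to 0.06, adjusted p = 0.353). At P4 Rgs7 was at 6.82, 12.8 and 18.3 CPM in RA, all above E14.5 and below P14, while in SAN it was at 1.56, 0 and 10.2 CPM. The step from P4 to P14 was 2.43 ± 0.71 in RA (adjusted p = 0.0414), where 6.76% of all genes were called, and 2.57 ± 0.71 in SAN (adjusted p = 0.0354), where 5.59% were. Those steps were lost in 8 and 4 of the 18 fits without a library, with adjusted p up to 0.131 and 0.192. The atrial step from E14.5 to P4, 3.02 ± 0.71 (adjusted p = 0.00949), was lost without RA E14.5 replicate 1 or RA P4 replicate 3 (adjusted p up to 0.058).

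Rgs2 rose by 2.19 ± 0.46 in RA from E14.5 to P14 (limma, adjusted p = 0.0012) and by 1.96 ± 0.46 in SAN (adjusted p = 0.00289). SAN minus RA in this rise was -0.23 ± 0.64 (95% interval -1.57 to 1.11, adjusted p = 0.915). In RA the step to P4 was 1.96 ± 0.46 (adjusted p = 0.00898), and leaving out RA P4 replicate 3 ended that call (adjusted p = 0.0711). Immediate early genes moved with it, as 11 of 14 rose in SAN and 8 of 14 in RA from E14.5 to P14, with sums of 133 to 181 CPM and 763 to 1911 CPM in SAN. The part of tissue handling in that was not tested.

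Rgs6 rose in RA by 1.71 ± 0.30 from E14.5 to P14 (limma, adjusted p = 0.00027), and in SAN the difference of 0.65 ± 0.30 did not pass the test (adjusted p = 0.13). Its atrial step from E14.5 to P4, 1.12 ± 0.30 (adjusted p = 0.0262), was lost without RA E14.5 replicate 3, RA P4 replicate 1 or RA P4 replicate 2 (adjusted p up to 0.176). Rgs10 was the 1 gene of the 10 that fell at any step. In SAN it went from 34.8, 27.8 and 11.7 CPM at E14.5 to 2.94, 0.902 and 6.52 CPM at P4, a difference of -2.62 ± 0.60 (adjusted p = 0.00755) that was lost without SAN E14.5 replicate 1 or SAN P4 replicate 2 (adjusted p up to 0.0558). Its P14 values of 18.7, 5.33 and 7.92 CPM overlapped both earlier stages. Of 14 macrophage and leukocyte markers, 4 rose and 0 fell in SAN from E14.5 to P4. From E14.5 to P14, 11 rose in SAN, and Rgs10 differed by -1.19 ± 0.60, which did not pass the test (adjusted p = 0.158). The part of leukocytes in Rgs10 was not tested. Rgs3, Rgs12, Rgs14 and Rgs16 were called at no step in either tissue.

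In the E12.5 node with floxed Isl1, Rgs4 and Rgs12 were lower in the libraries labelled CrePos, 2 of the 8 RGS genes tested, where 2% of the 14595 genes tested were called, with 1.32% of all genes lower. The comparison was set up around Isl1, a homeodomain transcription factor of the node. Because no library had Cre without the floxed allele, loss of Isl1 and Cre activity itself cannot be told apart. The targeted gene itself was at 67.4, 88.5, 47.8 and 83.2 CPM in CreNeg and at 71.7 and 53.9 CPM in the CrePos libraries compared, which overlapped. The labels do not name the deleted exons, and reads over a whole gene can come from outside them, so these values do not check the deletion. Isl1 was at 2.85 CPM in CrePos replicate 2, which was left out and which also held 1032 CPM of Myl2.

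**Figure D4:**
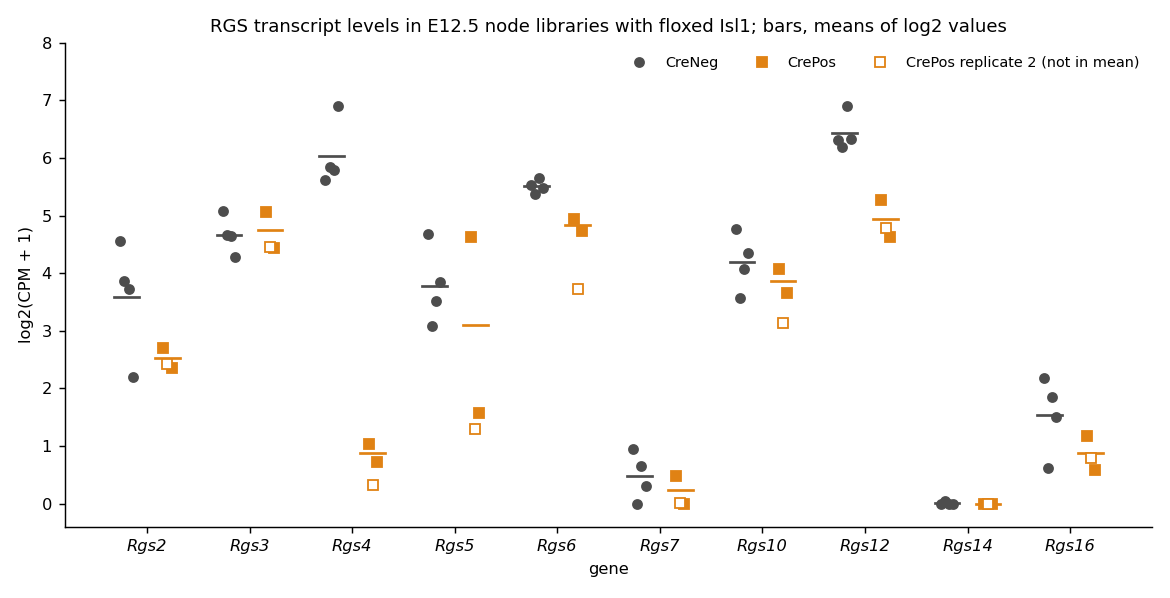
Level of each RGS gene as log2(CPM + 1) in the E12.5 libraries with floxed Isl1, with circles for 4 CreNeg libraries, filled squares for the 2 CrePos libraries compared, an open square for CrePos replicate 2 and bars at the means of the log2 values. Rgs4 is separated by more than 4 units, Rgs12 and Rgs6 are separated by less, and the other genes overlap or lie near 0.

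Rgs4 was at 48.1, 56.1, 54.6 and 118 CPM in CreNeg and at 1.06 and 0.650 CPM in the libraries labelled CrePos. The groups did not overlap, and the ratio of the means was 80.7, CreNeg over CrePos. The log2 difference was -5.15 ± 0.38 (limma, adjusted p = 2.79e-06). It remained called in each fit that left out a library, with equal upper quartiles (-4.87, adjusted p = 0.000174), by edgeR on whole reads (-5.94, adjusted p = 0.00261) and with CrePos replicate 2, where the gene was at 0.255 CPM.

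Rgs12 was at 77.9, 72.0, 118 and 79.4 CPM in CreNeg and at 37.4 and 23.8 CPM in the libraries labelled CrePos, again without overlap. Its difference of -1.48 ± 0.28 (limma, adjusted p = 0.0103) stands against a median of -0.42 over all genes tested. With equal upper quartiles, which brought that median to -0.03, Rgs12 differed by -1.04 (adjusted p = 0.0623), and by edgeR by -1.08 (adjusted p = 0.121). The call was also lost without CrePos replicate 3 (adjusted p = 0.348) and without the filter on low values (adjusted p = 0.129). All calls of that comparison split into 99 higher and 193 lower, and into 163 and 71 with equal upper quartiles.

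Rgs6 was at 45.5, 40.3, 49.1 and 43.7 CPM in CreNeg and at 29.6 and 25.7 CPM in the libraries labelled CrePos. The groups did not overlap, yet the difference of -0.67 ± 0.26 did not pass the test (95% interval -1.22 to -0.12, limma, adjusted p = 0.184), and it was -0.23 with equal upper quartiles. Rgs2 overlapped, at 22.5, 13.6, 12.3 and 3.58 CPM against 5.49 and 4.09 CPM (-1.06 ± 0.54, adjusted p = 0.272). Rgs3, Rgs5, Rgs10 and Rgs16 overlapped too, with differences of 0.09, -0.69, -0.32 and -0.66 and adjusted p from 0.473 to 0.885. Rgs7 reached at most 0.920 CPM and Rgs14 at most 0.0312 CPM in these 7 libraries, and neither met the minimum for testing.

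Of the 7 node markers, 4 fell in the libraries labelled CrePos and none rose, and of 6 working atrial markers tested 3 rose and none fell. The node markers summed to 2009 to 2140 CPM in CreNeg and 829 to 1000 CPM in CrePos, and Hcn4 went from 214 to 247 CPM down to 81.1 and 108 CPM. Rgs4 was therefore lower by a larger factor than Hcn4 in the same libraries. Autonomic neuron markers summed to 112 to 192 CPM in CreNeg and 39.2 to 50.8 CPM in CrePos, with 1 of 5 tested called lower, and 4 of 10 fibroblast markers fell. The part of these cells in the RGS differences was not tested. The marker counts stand against a median of -0.42 over all genes tested and were not checked under other scalings.

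Other genes of the pathway were read from lists, each with at most 3 named. Of 10 further RGS genes, 7 met the minimum for testing, and Rgs9, an R7 gene, was higher in SAN (means 5.34 and 1.10 CPM, log2 difference 1.30, limma, adjusted p = 0.0172). In the libraries labelled CrePos, Rgs8 fell from a mean of 6.50 CPM to 0.275 CPM (-2.48 ± 0.49, adjusted p = 0.0149). That call was not checked under other scalings. Rgs8 is the neighbour of Rgs16 on chromosome 1. Of 13 alpha subunit genes, the inhibitory Gnao1 (0.40, adjusted p = 0.00854) and Gnai1 (0.55, adjusted p = 0.0323) were higher in SAN and none was lower. Of 12 beta and gamma subunit genes tested, 2 rose and 4 fell in SAN from E14.5 to P14, and 1 rose and 2 fell in RA. Among 6 partner genes, Rgs9bp, the anchor of Rgs9, was lower in SAN (-1.11, adjusted p = 0.00874).

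Receptors and effectors upstream and downstream of these G proteins gave 7 of 19 higher and 3 lower in SAN. The adenosine receptor gene Adora1 was higher (means 78.6 and 17.4 CPM, log2 difference 2.52, limma, adjusted p = 3.9e-05). The endothelin receptor gene Ednrb (-1.98, adjusted p = 9.12e-09) and the GIRK channel gene Kcnj3 (-1.66, adjusted p = 7.85e-07) were lower. With age 6 of the 19 rose in RA, led by the muscarinic receptor gene Chrm2 (2.29, adjusted p = 1.04e-06), Kcnj5 (1.98, adjusted p = 1.21e-06) and Kcnj3 (2.67, adjusted p = 3.04e-06), over the same interval in which atrial Rgs4 and Rgs6 rose. In SAN 7 rose and 1 fell, and for Kcnj5 the SAN change minus the RA change was -1.34 ± 0.31 (adjusted p = 0.0236). In the libraries labelled CrePos 3 of 17 were called lower and none higher, Chrm2 (-2.14, adjusted p = 0.0119), Adora1 (-1.65, adjusted p = 0.0124) and Plcb1 (-1.58, adjusted p = 0.0345). The median of all genes tested there was -0.42. All calls went from 99 higher and 193 lower to 163 and 71 with equal upper quartiles. These 3 calls were not checked under other scalings.

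The genes most like each RGS gene were found by Pearson correlation of log2(CPM + 1) over the 18 libraries, among 12249 genes with a mean of at least 5 CPM. These points have tissue, stage and library in common, and the correlations describe the pattern only. Rgs4 was most like Gucy2e (r = 0.965), Csmd1 (0.961) and Cntfr (0.959). Among the genes nearest to Rgs6 were Dok7 (0.950) and Smad9 (0.947), and Rgs12 was most like Inpp4a (0.941), the calcium channel gene Cacna1d (0.935) and Igfbp5 (0.927). For Rgs2 the nearest were Nudt4 (0.936), Mtus2 (0.924) and A930038C07Rik (0.913). Rgs5 was nearest to Dbh (0.958), Nfix (0.941) and Carns1 (0.935), and Rgs7 to Aldh1a3 (0.922), Podn (0.907) and Lgr6 (0.907). The best matches of Rgs3, Rgs10 and Rgs16 were weaker, at 0.842, 0.823 and 0.817.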

How the data were processed

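RNA from laser-captured tissue on 8 micron sections, outlined by eye, was amplified by single primer isothermal amplification into unstranded libraries, per the labels' protocols. Reads were aligned with TopHat2 2.0.6 and scaled with edgeR on build mm8, per the submitters' processing notes; the read counter was not given in the sources used here. The deposited signal was whole reads multiplied by 1 factor per library: at least 99.99% of values were whole within 0.1 of a read. It was divided by 24.3 for all libraries, giving the CPM scale. The 18 libraries entered 1 fit with a mean per group and the Isl1 set another (limma 3.58.1, R 4.3.3), and 17568 and 14595 genes were tested. Alternatives were a pseudocount of 0.25, no filter, equal upper quartiles, edgeR 4.0.16 quasi-likelihood tests on the recovered reads, a replicate block, each library left out in turn and CrePos replicate 2 added. Replicates differed by more than counting noise (chi-squared over degrees of freedom at least 8.82). Counting intervals and floors cover counting error only, as amplified reads are not independent molecules. The fits were tested on simulated data. Named genes were all 10 RGS genes, up to 3 called genes with the smallest p per pathway list and comparison, and the 3 most correlated genes of each RGS gene that reached a mean of 5 CPM in a group; a gene under this rule is not reported here. Members, lists and rules were chosen with earlier results of these data known.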

Additional observations from a re-analysis of the deposited data

Results flagged for a closer look

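Rgs4 differed between the tissues in its change from E14.5 to P14, by -3.90 on the log2 scale, as it rose in RA and its SAN libraries were lower at P14 than at E14.5. Among the 4 CreNeg libraries, 3 of the 10 RGS genes had a highest library far from the rest, measured as its gap to the next divided by the range of the group. For Rgs4 this was 0.886, with 118 CPM in replicate 4 against 48.1 to 56.1 CPM. For Rgs12 it was 0.838, with 118 CPM in replicate 3 against 72.0 to 79.4 CPM. For Rgs14 it was 1, with 0.0312 CPM in replicate 2 and 0 CPM in the other 3 libraries, which is within the limit that a count of 0 allows. For normally distributed values chance alone marks about 1 in 20 groups, and 10 were examined. CPM values need not be so distributed, and for Rgs14 the 3 libraries at 0 CPM fix the measure at 1. The cause was not tested.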

How the results depend on the processing

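No called result changed direction under the alternatives run. Among uncalled single-gene results the sign turned in 4 with equal upper quartiles, 8 by edgeR, 1 with the replicate block and 1 with CrePos replicate 2. Of 118 results on single RGS genes, 114 kept their side of the threshold with a pseudocount of 0.25, 113 with no filter, 116 with equal upper quartiles and 110 by edgeR on recovered reads, and all 8 of the Isl1 set did with CrePos replicate 2. The RGS genes called in SAN from P4 to P14 went from 1 to 0, and in RA from 2 to 1, with a pseudocount of 0.25, with no filter and by edgeR. In the Isl1 set they went from 2 to 1 with no filter, equal upper quartiles and edgeR. All genes called in that set went from 292 to 39 with no filter and 126 by edgeR. In RA from P4 to P14 they went from 1188 to 724 with equal upper quartiles and 541 by edgeR. By edgeR, SAN against RA at P14 went from 799 to 525, and the difference between the tissues in the change with age from 399 to 227. The cause was not tested.

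With each library left out in turn, the RGS genes called ranged from 4 to 8 for SAN against RA averaged over the stages, 3 to 5 at E14.5, 4 to 5 at P4 and 4 to 4 at P14. They ranged from 1 to 3 in SAN from E14.5 to P4, 0 to 1 from P4 to P14 and 3 to 4 from E14.5 to P14, and in RA from 3 to 5, 0 to 2 and 5 to 5. For the difference between the tissues the range was 1 to 1 and in the Isl1 set 1 to 2. All genes called ranged from 1673 to 2217 averaged over the stages, 579 to 1057 at E14.5, 745 to 1371 at P4 and 464 to 924 at P14. In SAN the ranges were 791 to 1681, 547 to 1149 and 3168 to 4655 in the same order of steps, and in RA 760 to 1332, 632 to 1385 and 2887 to 4394. They were 190 to 569 for the difference between the tissues and 42 to 364 in the Isl1 set.

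Replicate numbers gave no clear sign of pairing between SAN and RA. Over 9 same-numbered pairs the correlation of deviations from group means was -0.092 to 0.119, and 2 were over 0.1. Only 3 libraries matched best with their own number. With 3 libraries per group this check cannot exclude a pairing. With the replicate block, 114 of 118 single-gene results kept their side of the threshold and 4 gained a call. Among them was Rgs2 in the Isl1 set (-1.62, limma, adjusted p = 0.0479), and 980 genes were called in that set. The block leaves few residual degrees of freedom in the Isl1 set, and pairing by number was not checked there, so these gains carry little weight. Other scalings moved the split of higher and lower calls at SAN against RA at P14 from 564 and 235 to 427 and 341 with equal upper quartiles, and in RA from P4 to P14 from 236 and 952 to 425 and 299. By edgeR the split at E14.5 went from 393 and 543 to 353 and 304. Depth limits Rgs14, Rgs7 at E14.5 and atrial Rgs4 at E14.5, which rest on a few reads per library.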
